A study of Mus musculus with 23 samples.

Results

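The levels of 10 neuropeptide and gut peptide genes were described across 8 groups of samples from the glands and skin around the mouse eye. The 10 genes were Cck, Grp, Tac1, Nts, Penk, Npy, Sst, Cartpt, Gal and Vip, of 20887 genes with a named probe on the array. They were chosen by name and selected on their measured levels in all 8 groups. Those levels are therefore given as a description, with no test. Each gene had 1 probe, found through the RefSeq accession attached to it. Of the 10 genes 9 passed the filter on dim probes, which required 1 group or more in which each array read the probe well above background, and Vip did not. A gene that passes such a filter through its brightest group differs from its dimmest group by construction.

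The study compared the lacrimal gland (LG), which makes the watery part of the tear film, the harderian gland (HG), a lipid-secreting gland behind the eye, and the eyelid with its conjunctiva. At embryonic day 16.5 each tissue had been separated into epithelium and mesenchyme, with 3 arrays for each of the 6 groups. Whole adult LG (2 arrays) and whole adult HG (3 arrays) came from mice aged 7 weeks. All 23 samples carried the background label B6/CL, and no allele, agent or treatment was labelled. The adult glands were not separated, so an adult level mixes all cells of the gland and is not a compartment of it. The labels do not say whether arrays of a group came from separate animals or from pooled tissue, so p-values measure the spread between these arrays, which may be technical.

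Neuropeptides and gut peptides are made as long precursors, sorted into dense-core granules, cut by prohormone convertases and released to act on G protein-coupled receptors. In exocrine glands such as the LG they are best known as transmitters of the parasympathetic, sympathetic and sensory nerves that control secretion and blood flow. Several of the precursors are also transcribed outside neurons, in enteroendocrine cells, gland cells or developing mesenchyme. The cell bodies of the nerves that reach these glands lie in ganglia outside them, so a transcript measured here need not be that of an innervating neuron.

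Promoter sequences are shown for 5 of the genes whose levels the results turn on. Cartpt and Sst hold the full cyclic AMP response element, a site known in peptide genes, and Cck, Tac1 and Nts were higher in mesenchyme than in epithelium in HG and eyelid. RefSeq (build GRCm38.p6) gave a window of 300 bases around the start, 250 before and 50 after, for 8 of the 10 genes. Penk and Grp had no entry. Each sequence below is the 200 bases before the start, read 5' to 3' on the strand of the gene. Capitals mark the element TGACGTCA or its core, TGACG on either strand (CGTCA), and every full element holds a core on both strands. The stretches are Cartpt chr13:99900684-99900883 (minus strand), Sst chr16:23890845-23891044 (minus), Cck chr9:121495695-121495894 (minus), Tac1 chr6:7554861-7555060 (plus) and Nts chr10:102490419-102490618 (minus).
Cartpt: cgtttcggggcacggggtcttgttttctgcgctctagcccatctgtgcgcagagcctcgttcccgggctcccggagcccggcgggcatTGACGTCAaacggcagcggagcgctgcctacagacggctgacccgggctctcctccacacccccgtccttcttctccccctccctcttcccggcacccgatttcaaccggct
Sst: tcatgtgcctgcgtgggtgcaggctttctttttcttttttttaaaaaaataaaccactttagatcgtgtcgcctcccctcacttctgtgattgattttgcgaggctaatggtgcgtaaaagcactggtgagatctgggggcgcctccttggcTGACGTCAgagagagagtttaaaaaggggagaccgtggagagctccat
Cck: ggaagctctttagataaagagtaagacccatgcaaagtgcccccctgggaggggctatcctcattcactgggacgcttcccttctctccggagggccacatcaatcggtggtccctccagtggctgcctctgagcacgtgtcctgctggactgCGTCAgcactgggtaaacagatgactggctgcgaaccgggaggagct
Tac1: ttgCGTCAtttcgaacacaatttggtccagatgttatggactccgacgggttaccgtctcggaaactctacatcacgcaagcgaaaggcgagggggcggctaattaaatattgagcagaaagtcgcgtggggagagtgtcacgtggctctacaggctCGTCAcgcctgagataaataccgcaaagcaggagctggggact
Nts: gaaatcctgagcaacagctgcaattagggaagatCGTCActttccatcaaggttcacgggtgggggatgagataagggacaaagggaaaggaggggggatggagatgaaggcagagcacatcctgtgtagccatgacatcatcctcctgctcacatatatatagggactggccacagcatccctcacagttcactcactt

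The full element began 112 bases before the start of Cartpt and 48 bases before that of Sst. It was present in 588 of 32851 windows in the table, or 1.79%, and in 2 of the 8 windows of these genes. The core was present in 7 of the 8, at 47 bases before the start of Cck, 43 and 197 bases before that of Tac1, 166 before Nts and 79 before Vip. In Gal it lay after the start, and in Npy it was not among these letters. Over all windows 20.8% held the core. Cartpt and Sst, which share the full element, had different patterns of level across the 8 groups.

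Values are log2 of the background-subtracted probe signal minus the 75th percentile of its array, so 0 is a level at that percentile. Different probes bind with different strength, and levels are compared between groups for 1 probe and not between genes. The share of spots well above background ran from 42.4% to 64.6%. Both adult LG arrays were dim, with a 75th percentile of 194 and 139 intensity units where the other arrays had 313 to 857, so a dim gene is measured least well there. The 10 epithelium markers and the 10 mesenchyme markers were called in the labelled direction in all 3 tissues, by limma with Benjamini-Hochberg adjustment over 16324 genes. Mesenchyme markers were nevertheless read well above background on the epithelial arrays, and how much of this was carried-over RNA was not tested. The linear levels of the 10 mesenchyme markers summed to 95.5 to 246 on the epithelial arrays and to 1247 to 1684 on the mesenchymal arrays. In bulk tissue, fewer cells of a type and less RNA per cell cannot be told apart.

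**Figure D1:**
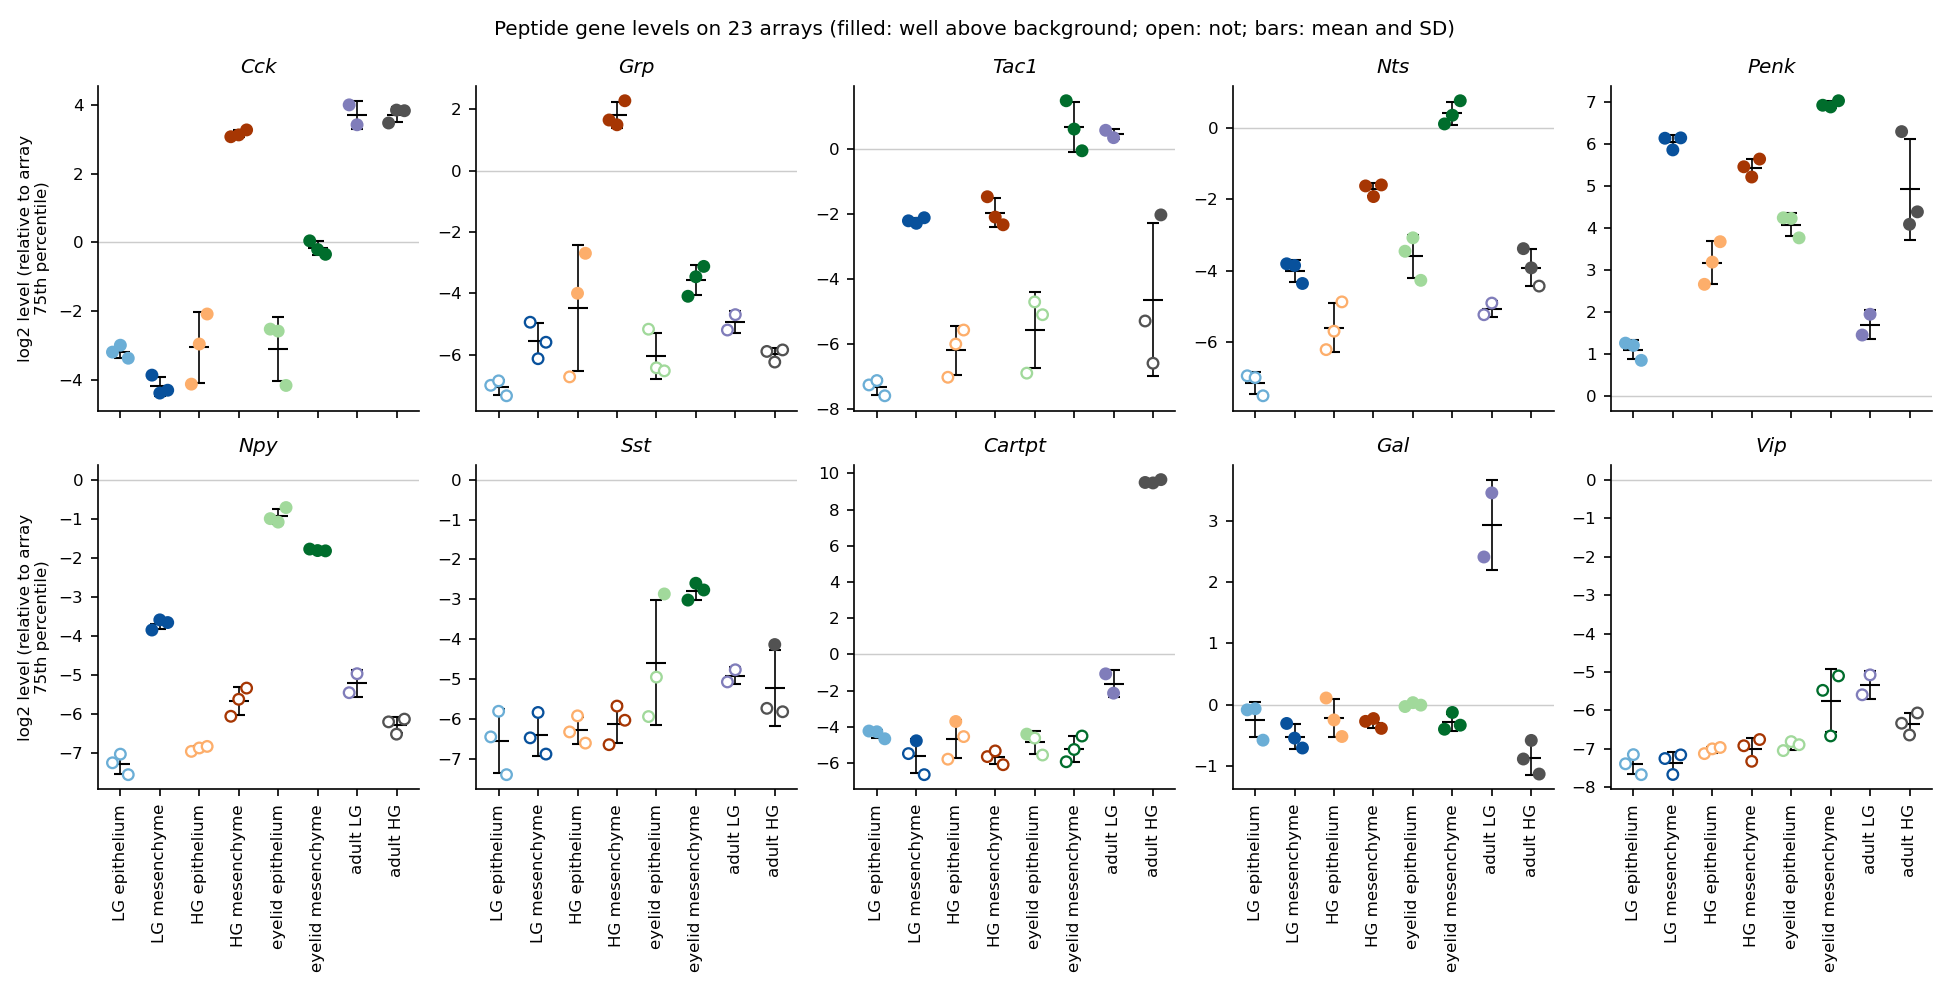
Log2 level of each of the 10 genes (y axis, relative to the array's 75th percentile, with its own range in each panel) in the 8 groups (x axis). Points are arrays, filled where the probe was well above background and open where not, and bars are the mean and SD. Cck and Grp stand high in HG mesenchyme, Cartpt in adult HG, Gal in adult LG, and Npy in both eyelid compartments.

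Cck and Grp marked HG mesenchyme among the 3 mesenchymes. Cck encodes cholecystokinin, a gut hormone that contracts the gallbladder and a peptide transmitter of the brain. Its probe (A_55_P1977431) was well above background on all 23 arrays. In HG mesenchyme the log2 level of Cck was 3.07, 3.12 and 3.27 (3.15 ± 0.10, SD, n = 3). In eyelid mesenchyme it was 0.05, -0.21 and -0.35 (-0.17 ± 0.20), and in LG mesenchyme -3.85, -4.37 and -4.29 (-4.17 ± 0.28). The 3 mesenchymes did not overlap. Cck was thus 9.99-fold higher in HG than in eyelid mesenchyme and 160.4-fold higher in HG than in LG mesenchyme. LG minus HG mesenchyme was -6.92, -7.50 and -7.56 on the 3 slides, each of which held 1 array of both groups.

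The direction of Cck between compartments depended on the tissue. HG mesenchyme was 73.5-fold above HG epithelium (-4.12, -2.95 and -2.08) in Cck, and eyelid mesenchyme was 7.54-fold above eyelid epithelium (-2.52, -2.58 and -4.15). In LG the order was turned, with epithelium (-3.19, -2.98 and -3.36) 1.99-fold above mesenchyme and no overlap. Both LG compartments were at the low end of the Cck range. The 3 epithelia overlapped one another in Cck, with means of -3.05 in HG, -3.08 in eyelid and -3.18 in LG. In the adult glands Cck was high in both. Adult HG gave 3.47, 3.84 and 3.82, and adult LG gave 3.99 and 3.42. The adult groups overlapped, with a mean difference of -0.01 (LG minus HG), whose sign turned among 7 alternative settings (-0.42 to 0.35). Adult LG was 118-fold above embryonic LG epithelium and 235-fold above embryonic LG mesenchyme in Cck. That compares whole glands with compartments, and ages, at once. The folds also rest on the array scaling, and no other setting was tried for them. Unscaled Cck signals were 1480 to 3084 intensity units in adult LG, 60.1 to 83.4 in LG epithelium and 30.5 to 38.7 in LG mesenchyme. In adult HG they were 3460 to 6626, above adult LG, so the overlap of the adult groups in Cck rests on the scaling too.

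Grp encodes gastrin-releasing peptide, which drives gastrin secretion in the stomach and carries itch signals in the spinal cord. Its probe (A_51_P356055) was well above background on 8 of 23 arrays. In HG mesenchyme the log2 level of Grp was 1.65, 1.5 and 2.28 (1.81 ± 0.41, SD, n = 3). Eyelid mesenchyme was next at -4.09, -3.46 and -3.12, all well above background and without overlap with HG mesenchyme, which was 41.3-fold higher. LG mesenchyme (-4.94, -6.13 and -5.59) was not well above background on any array. Where a group is not well above background the fold is a lower bound, set at the lowest signal well above background on each of its arrays. On that basis Grp was at least 117-fold higher in HG than in LG mesenchyme. It was at least 60.6-fold higher in HG mesenchyme than in adult HG (-5.89, -6.24 and -5.84), and at least 28.7-fold higher than in adult LG (-5.19 and -4.69). Both adult glands were below background for Grp, whereas Cck was high in both.

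HG epithelium differed among its arrays in Grp, at -6.72, -4.00 and -2.69 for replicates 1, 2 and 3, with replicates 2 and 3 well above background. The summed level of the 10 mesenchyme markers on the same arrays was 125, 172 and 223. Cck, Penk, Nts and Tac1 had the same order over these 3 arrays, which is also the order of the slides. Penk was at 2.66, 3.19 and 3.67 there, Nts at -6.21, -5.70 and -4.87, and Tac1 at -7.02, -6.00 and -5.57, the last 2 genes below background on all 3. In LG epithelium the marker sum was 115, 95.5 and 137 and Cck stayed between -3.36 and -2.98. In eyelid epithelium it was 176, 246 and 243, and Cck (-2.52, -2.58 and -4.15) did not have that order. Penk did not have the order of the sums in LG (1.25, 1.20 and 0.84) or eyelid epithelium (4.24, 4.23 and 3.77). Tac1 had it in eyelid epithelium (-6.90, -4.70 and -5.10), below background on all 3 arrays. The part of mesenchymal RNA in the levels of HG epithelium was not tested.

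**Figure D2:**
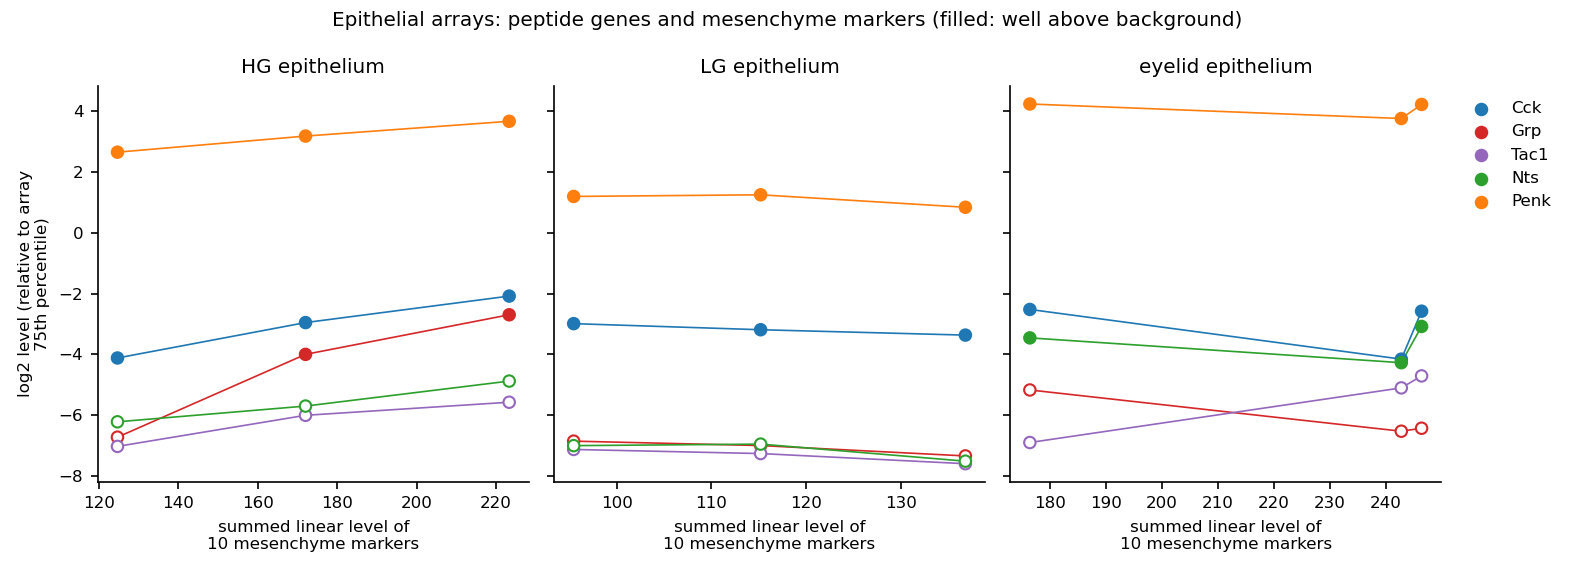
Log2 level of Cck, Grp, Tac1, Nts and Penk (y axis, relative to the array's 75th percentile) against the summed linear level of 10 mesenchyme markers (x axis, with its own range in each panel) on the 3 arrays of each epithelial group. Filled points were well above background, and lines join the arrays of 1 gene. All 5 genes were lowest on the HG epithelium array with the lowest sum, 125, and highest on the one with the highest, 223.

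Tac1, Nts, Penk and Sst had their highest mean in eyelid mesenchyme. Tac1 encodes the precursor of substance P and neurokinin A, transmitters of pain-sensing fibres. The Tac1 probe (A_55_P1954693) gave 1.48, 0.61 and -0.05 in eyelid mesenchyme (0.68 ± 0.77, SD, n = 3). HG mesenchyme (-1.47, -2.10 and -2.33) and LG mesenchyme (-2.21, -2.29 and -2.12) overlapped, and lay 6.26-fold and 7.39-fold below eyelid mesenchyme without overlapping it. None of the 9 epithelial arrays was well above background for Tac1. Mesenchyme exceeded epithelium at least 39.6-fold in eyelid, at least 6.78-fold in HG and at least 7.66-fold in LG. Adult LG (0.58 and 0.35) lay within the range of eyelid mesenchyme on this scale, which rests on the array scaling. Unscaled Tac1 signals were 177 to 289 intensity units in adult LG, below the 450 to 1141 of eyelid mesenchyme. Adult HG was at -5.29, -6.59 and -2.03, with replicate 3 alone well above background, and both adult LG arrays lay above all 3. Within slides 2 and 3 the adult difference in Tac1 was 7.17 and 2.38, so its size rests on which HG array is used.

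Nts encodes neurotensin, a gut and brain peptide released by fat in the intestine. Its probe (A_51_P485756) gave log2 levels of 0.12, 0.36 and 0.77 in eyelid mesenchyme (0.42 ± 0.33, SD, n = 3). HG mesenchyme followed at -1.62, -1.92 and -1.59, and LG mesenchyme at -3.81, -3.85 and -4.36, with no overlap among the 3. Eyelid mesenchyme was 4.37-fold above HG and 21.5-fold above LG mesenchyme in Nts. Eyelid epithelium (-3.45, -3.08 and -4.27) was well above background on all 3 arrays and 16.2-fold below its mesenchyme. LG and HG epithelium were not well above background for Nts on any array, so that mesenchyme was at least 2.20-fold higher in LG and at least 8.10-fold higher in HG. Adult HG gave -3.38, -3.92 and -4.43, the last not well above background, and adult LG (-5.24 and -4.91) gave no array above it. The sign of the adult difference in Nts turned with normexp background correction, from -1.16 to 0.44.

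Penk encodes proenkephalin, the precursor of the opioid enkephalins, and is known to be transcribed in developing mesenchyme as well as in neurons. Its probe (A_55_P2035946) was well above background on all 23 arrays, with signals of 528 to 74065 intensity units. The log2 level of Penk was 6.93, 6.89 and 7.04 in eyelid mesenchyme, 6.14, 5.86 and 6.15 in LG mesenchyme and 5.46, 5.22 and 5.64 in HG mesenchyme. The 3 groups did not overlap, but differed by at most 2.85-fold, eyelid over HG. In the epithelia Penk was at 4.24, 4.23 and 3.77 in eyelid, 2.66, 3.19 and 3.67 in HG and 1.25, 1.20 and 0.84 in LG, again without overlap. Mesenchyme was 30.9-fold above epithelium in LG, 4.82-fold in HG and 7.32-fold in eyelid. The tissue with the lowest epithelial level, LG, was thus not the one with the lowest mesenchymal level.

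Adult HG was the group with the widest spread in Penk, at 6.30, 4.09 and 4.39 (4.92 ± 1.20, SD, n = 3). Replicate 1 also had the highest sums of mesenchyme markers (593 against 331 and 274), immune markers (85.9 against 39.8 and 23.7) and skeletal muscle markers (14.1 against 2.34 and 1.11), and was the adult array on slide 1. The part of these cells in its Penk level was not tested. Adult LG was at 1.45 and 1.94, below every adult HG array, with a 9.37-fold lower mean. On slides 2 and 3, which leave out that HG array, adult LG minus adult HG in Penk was -2.64 and -2.44, against -3.23 over all arrays. Of the 10 mesenchyme markers 8 were called lower in adult LG, where 33.2% of all genes were.

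Sst encodes somatostatin, an inhibitor of hormone release and of secretion in the gut and pancreas. Its probe (A_51_P262489) was well above background on 5 of 23 arrays. Eyelid mesenchyme gave -3.02, -2.60 and -2.77 (-2.79 ± 0.21, SD, n = 3), the lone group with all arrays above background for Sst. Eyelid epithelium gave -5.94, -4.95 and -2.87, with replicate 3 alone above background and within the range of the mesenchyme. Replicate 2 of adult HG (-4.13) was the other array above background. Sst was at least 5.40-fold higher in eyelid than in LG mesenchyme and at least 3.79-fold higher than in HG mesenchyme.

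**Figure D3:**
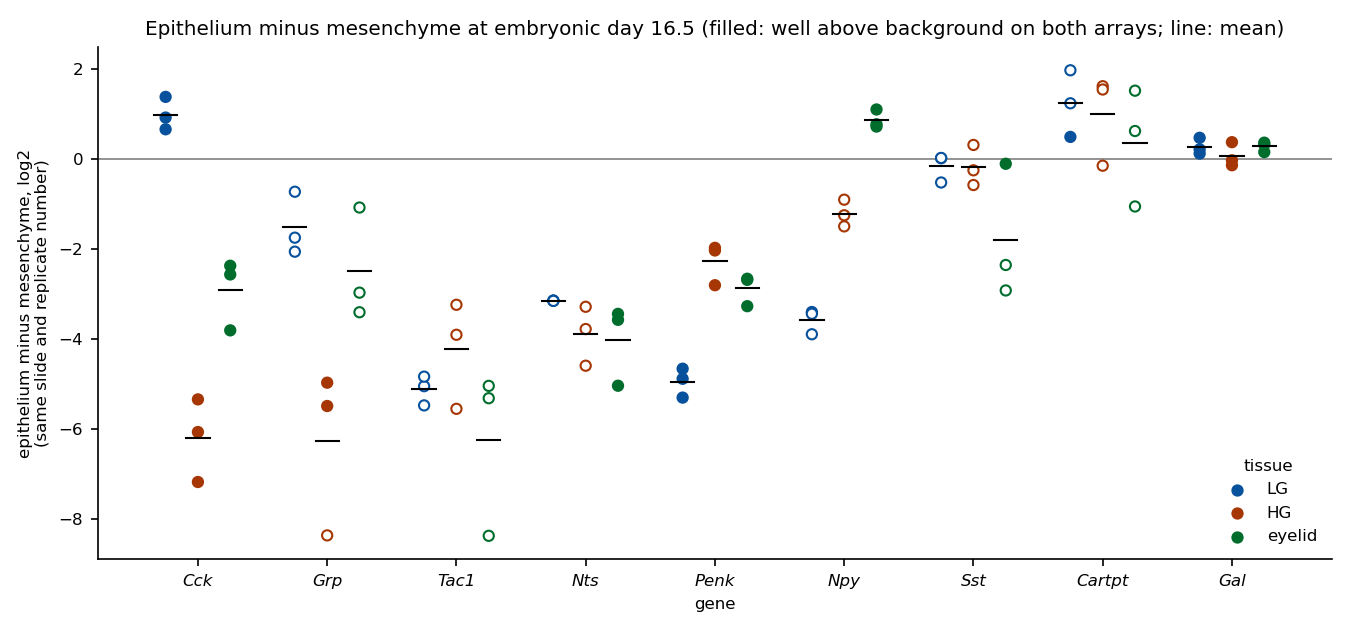
Epithelium minus mesenchyme in log2 level (y axis) for 9 genes (x axis) in LG, HG and eyelid at embryonic day 16.5, each point a pair of arrays on 1 slide and each line the mean of 3 slides. Filled points were well above background on both arrays, and for an open point at least 1 of its arrays was not. Penk, Tac1 and Nts lie below 0 on every slide in all 3 tissues, Cck lies above 0 in LG and below it in HG and eyelid, and Npy lies above 0 in eyelid alone.

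Npy set both eyelid compartments apart from the glands. It encodes neuropeptide Y, a transmitter of sympathetic nerves that constricts blood vessels and stimulates feeding. The Npy probe (A_51_P454873) gave -1.0, -1.09 and -0.71 in eyelid epithelium (-0.93 ± 0.19, SD, n = 3) and -1.78, -1.82 and -1.82 in eyelid mesenchyme (-1.81 ± 0.02). The epithelium was 1.83-fold higher, without overlap and on each of the 3 slides (0.78, 0.73 and 1.11). In LG the order was the other way. LG mesenchyme gave -3.85, -3.59 and -3.66, all above background, and LG epithelium was below background on all 3 arrays, so that mesenchyme was at least 2.71-fold higher. HG gave no array above background for Npy in either compartment or in the adult gland, and adult LG gave none. Eyelid epithelium was at least 18.5-fold above LG epithelium and at least 13.9-fold above HG epithelium. The 10 epithelium markers summed to 89.8 to 217 in eyelid mesenchyme and to 5.63 to 23.1 in the gland mesenchymes, and the part of epithelial RNA in the Npy level of eyelid mesenchyme was not tested.

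Cartpt in adult HG and Gal in adult LG stood above every other group. Cartpt encodes the cocaine- and amphetamine-regulated transcript peptide, which reduces feeding. Its probe (A_52_P208649) gave log2 levels of 9.50, 9.47 and 9.66 in adult HG (9.54 ± 0.10, SD, n = 3), with signals up to 328491 intensity units and no saturated spot. Adult LG was next at -1.08 and -2.14, and the group means of Cartpt spanned 15.24 on the log2 scale. Adult HG was 2278-fold above adult LG, and the difference was -10.55 on slide 2 and -11.80 on slide 3 (LG minus HG). Over 7 alternative settings it lay between -11.71 and -10.21. The embryonic HG was near or below background for Cartpt. HG epithelium gave -5.79, -3.71 and -4.54, with replicate 2 alone above background, and HG mesenchyme gave none. Adult HG was at least 19631-fold above HG mesenchyme. LG epithelium was above background on all 3 arrays (-4.24, -4.28 and -4.67) and overlapped HG epithelium. The signs of the embryonic Cartpt differences between LG and HG turned among the settings, in epithelium (-0.35 to 0.72) and in mesenchyme (-0.19 to 0.36).

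Gal encodes galanin, a peptide of gut nerves and of hypothalamic and injured sensory neurons. Its probe (A_51_P258281) was well above background on all 23 arrays. In adult LG its log2 level was 2.41 and 3.46 (2.93 ± 0.74, SD, n = 2). The other 21 arrays lay between -1.13 and 0.11. Adult HG had the lowest mean, at -0.89, -0.58 and -1.13, so adult LG was 14.0-fold higher, by 3.0 on slide 2 and 4.59 on slide 3. Adult LG was 9.05-fold above embryonic LG epithelium and 11-fold above LG mesenchyme in Gal, folds that rest on the array scaling. Unscaled Gal signals were 1030 to 1523 intensity units in adult LG, 454 to 573 in LG epithelium and 365 to 549 in LG mesenchyme. The 6 embryonic groups spanned 0.52 between their highest and lowest mean and many overlapped. Epithelium exceeded mesenchyme in Gal on every slide in LG (0.22, 0.48 and 0.13) and eyelid (0.37, 0.16 and 0.33), by 1.21-fold and 1.22-fold. In LG the 2 compartments overlapped.

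Vip encodes vasoactive intestinal peptide, the classical co-transmitter of the parasympathetic nerves of the LG. Its probe (A_51_P368313) was not well above background on any of 23 arrays, with signals of 3.07 to 13.6 intensity units. No fold is given for Vip. At this sensitivity a level of Vip could not be measured in any group, which does not show that it is absent.

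Adult LG and adult HG shared a high Cck and differed in Cartpt and Penk, higher in HG, and in Gal and Tac1, higher in LG. Eyelid mesenchyme had the highest group mean for Tac1, Nts, Penk and Sst, HG mesenchyme for Grp, adult HG for Cck (overlapping adult LG) and Cartpt, adult LG for Gal and eyelid epithelium for Npy.

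Muscle and sensory neuron markers summed higher in eyelid mesenchyme than in either gland mesenchyme, and neuron markers lay between the glands. Against the mean of LG and HG mesenchyme, 6 of 15 neuron markers were called higher and 2 lower, with 3 of 9 measured autonomic, 3 of 5 measured sensory and 7 of 9 Schwann cell markers higher and 1 Schwann cell marker lower. All 6 skeletal muscle markers and 7 of 10 epithelium markers were higher. Over all 16324 genes 14.5% were called higher and 15.0% lower in that comparison. Summed neuron markers were nevertheless 40.8 to 52.2 in eyelid mesenchyme and 56.7 to 64.6 in LG mesenchyme, against 24.6 to 38.0 in HG mesenchyme. Isl1, which marks developing sensory neurons among other cells, was well above background on 3 of 3 eyelid mesenchyme arrays and on no array of another group. Scn10a and Tlx3 were above background on none of the 23. The 8 sensory markers on the array summed to 1.0 to 1.09 in eyelid mesenchyme, 0.38 to 0.53 in LG and 0.40 to 0.54 in HG mesenchyme, and the 12 autonomic markers to 3.39 to 4.42, 2.43 to 2.60 and 3.53 to 4.40. Schwann cell markers summed to 9.47 to 12.4, 28.7 to 34.8 and 21.6 to 23, and muscle markers to 39.3 to 69.1, 0.91 to 1.20 and 1.80 to 4.66, in the same order. The part of nerve or muscle cells in the levels of Tac1, Nts, Penk and Sst was not tested.

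Machinery for making peptides was read from a list of 17 genes for processing and dense-core granules, of which 14 passed the filter. Pcsk1, the convertase of many neuroendocrine cells, and Vgf were above background on no array. In LG 2 of the 14 were called higher in epithelium and 6 lower, where 32.1% of all genes were higher and 26.5% lower. In HG 2 were higher and 7 lower (29.8% and 28.1% of all genes), and in eyelid 2 higher and 7 lower (25.7% and 25.5%). Scg2, secretogranin II of dense-core granules, was lower in epithelium by limma in LG (log2 difference -4.17, SE 0.77, adjusted p = 0.00014) and HG (-3.63, SE 0.77, adjusted p = 0.00051), with 1 of 3 epithelial arrays above background in each. Qpct, which forms the pyroglutamate end of neurotensin and other peptides, was lower in HG epithelium (-2.61, adjusted p = 2.5e-08) and eyelid epithelium (-2.82, adjusted p = 1.1e-08). Cadps2, a priming factor of granule release, was higher in LG epithelium (2.93, adjusted p = 3.8e-09) and HG epithelium (2.85, adjusted p = 7.8e-09). Between the gland epithelia none of the 14 was higher in LG and 1 was lower, where 2.96% of all genes were higher and 3.39% lower. Between the gland mesenchymes it was 2 and 3 (6.46% and 7.85% of all genes), and in eyelid against gland mesenchyme 4 and 3 (14.5% and 15.0%). Without replicate 1 the 7 lower in HG epithelium were 4 and the 4 higher in eyelid mesenchyme were 2. Without replicate 2 none was called between the gland epithelia and 1 was higher in eyelid epithelium. Fewer of all genes were called in these comparisons and directions too, without the same replicates. Cpe, a carboxypeptidase that trims peptide precursors, was 1 of the 2 higher in LG mesenchyme (1.12). The list's median difference was -0.11 in LG, -0.61 in HG and -0.76 in eyelid, beside 0.11, 0.03 and 0.05 over all genes.

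Receptors of the 10 peptides numbered 26 on the array, and 15 passed the filter. In LG 3 were called higher and 7 lower in epithelium, in HG 4 and 4, and in eyelid 4 and 5. Of all genes, 32.1% were higher and 26.5% lower in LG, 29.8% and 28.1% in HG, and 25.7% and 25.5% in eyelid. The median difference of the receptors was -0.21, 0.07 and 0.13 in these tissues, and -0.17 between the gland epithelia, 0.16 between the gland mesenchymes and -0.03 in eyelid against gland mesenchyme, where the medians of all genes lay between -0.06 and 0.0046. Npy2r, a receptor of neuropeptide Y that inhibits transmitter release, was lower in epithelium in LG (-5.52, SE 0.59, adjusted p = 2.3e-07) and HG (-5.47, SE 0.59, adjusted p = 2.9e-07) by limma. In eyelid it was higher in epithelium (2.92, SE 0.59, adjusted p = 0.00041), with 1 of 3 mesenchymal arrays above background. Npy itself was highest in the 2 eyelid groups, where Npy2r in mesenchyme was lower than the mean of the gland mesenchymes (-7.89, adjusted p = 1.9e-09, with that 1 array above background). Ntsr1, the main neurotensin receptor, was lower in epithelium in LG (-5.10), HG (-4.46) and eyelid (-1.64), with adjusted p of 3.7e-09, 2.7e-08 and 0.0019 and 2 of 3 LG and HG epithelial arrays above background. It was lower in eyelid than in gland mesenchyme (-2.54, adjusted p = 1.5e-05), whereas Nts was higher there.

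Sstr1, a somatostatin receptor, was lower in epithelium in all 3 tissues, by limma (-5.46 in LG, adjusted p = 3.4e-08; -3.47 in HG, adjusted p = 1.0e-05; -4.80 in eyelid, adjusted p = 2.4e-07). Of the epithelial arrays 1 of 3 in LG and none in HG or eyelid was above background for Sstr1, so it was at least 5.06-fold lower in HG and at least 16.0-fold lower in eyelid epithelium. Vipr1, a receptor of vasoactive intestinal peptide, was higher in epithelium in LG (3.90, SE 0.21, adjusted p = 7.0e-11) and HG (3.34, SE 0.21, adjusted p = 5.5e-10), although Vip was not measurable. Vipr2 was higher in HG epithelium than in HG mesenchyme (1.83, adjusted p = 7.3e-05) and than in LG epithelium (LG minus HG -2.38, adjusted p = 6.1e-05). Between LG and HG epithelium 1 receptor was called higher in LG and 2 lower, beside 2.96% and 3.39% of all genes. The first call and 1 of the 2 others (Vipr1 and Npy1r) were lost when any 1 replicate number was left out. Between the gland mesenchymes 2 were higher in LG and none lower, beside 6.46% and 7.85% of all genes. Both calls were lost without replicate 2. They were Grpr (2.42, adjusted p = 0.00036, but 0.0525 without replicate 2 and 0.228 with normexp correction), at least 1.35-fold, and Sstr1 (2.38, adjusted p = 0.0029, but 0.0941 without replicate 2), by limma. For its ligand Grp, HG mesenchyme was the group with the highest level. In eyelid against gland mesenchyme 3 receptors were higher and 2 lower, beside 14.5% and 15.0% of all genes. Grpr was higher there too by limma (3.47, adjusted p = 5.7e-07, with 3 of 6 gland arrays above background).

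**Figure D4:**
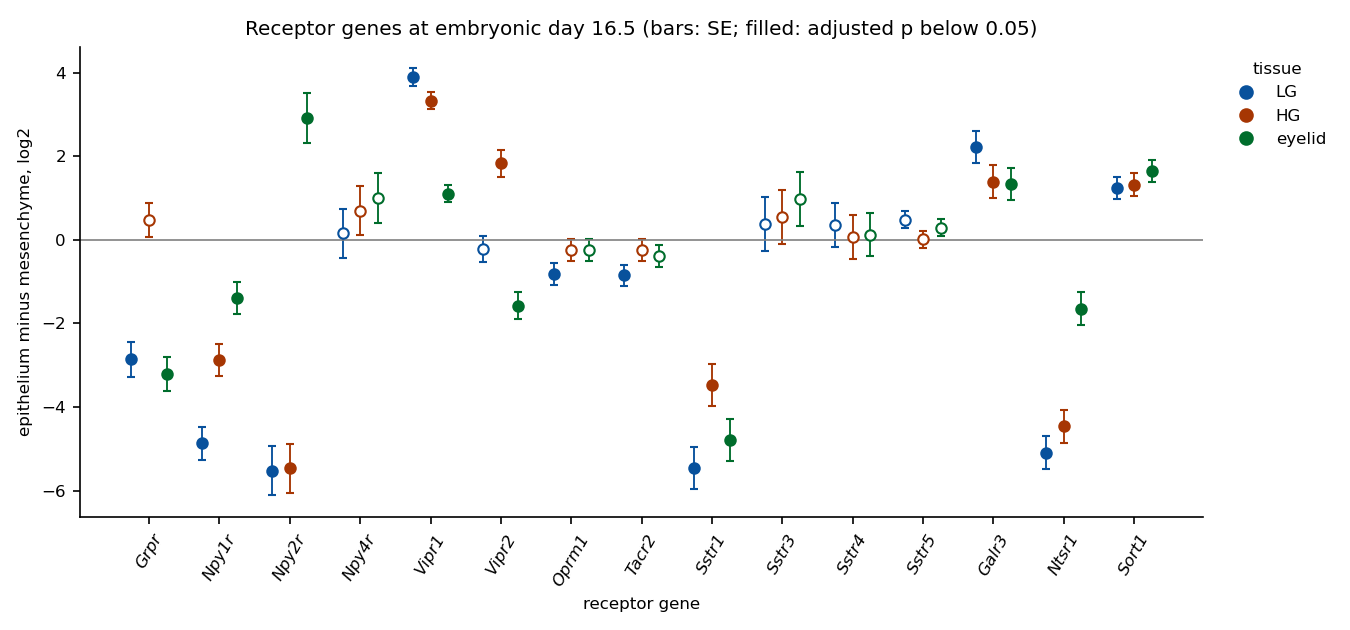
Epithelium minus mesenchyme in log2 level (y axis, with SE from limma) for the 15 receptor genes that passed the filter (x axis) in LG, HG and eyelid. Filled points had an adjusted p below 0.05. Npy2r lies at -5.52 in LG and -5.47 in HG but at 2.92 in eyelid, and Vipr1 lies above 0.

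In the adult glands 22.4% of all genes were called higher in LG and 33.2% lower. Of the called genes 40.3% were higher in LG, against 51.8% with normexp background correction and 27.9% with median scaling. The median over all genes was -0.13 there, and -0.38 with median scaling. Among receptors 3 were higher in LG and 5 lower, among processing genes 5 and 3, and among other peptide genes 8 and 4. Without slide 1, which held 1 adult HG array, the 5 receptors fell to 3 and the 8 peptide genes to 4. Over all genes 3241 were then higher and 5083 lower, where 3660 and 5421 had been. Fewer of these receptors and peptide genes were also called without replicate 1 or replicate 2. Each of these settings leaves 1 adult LG array, so their counts are not given. The 5 processing genes were 3 without replicate 3 and with median scaling. Of all genes 3497 and 1902 were higher in LG in these 2 settings. With normexp correction 6 receptors, 8 processing genes and 14 peptide genes were higher in LG. Over all genes 5448 were higher with this correction, and 3660 with the processing used throughout. With the latter, the median differences over all measured genes of the lists were -0.26 (receptors), 0.75 (processing genes) and 0.62 (other peptide genes). Grp and Npy, with no adult array above background and signals of 4.25 to 6.38 intensity units, read 1.05 and 1.07 higher in adult LG. The part of the scaling of the dim adult LG arrays in these medians was not tested. The adult tests use a spread estimated over all 8 groups. With only the adult groups in the fit, 4369 genes were called where 9081 had been. Of the list genes, Npy1r, Sstr1, Scg3, Kiss1 and Trh then lost their calls. Npy4r was higher in adult LG (5.07, SE 0.66, adjusted p = 3.8e-06, limma, with 1 of 3 HG arrays above background), as was Sstr3 (at least 9.65-fold, adjusted p = 9.9e-05). Sort1, the neurotensin receptor that also sorts proteins to lysosomes, was higher by 3.06 (adjusted p = 1.1e-07). Chga, chromogranin A of dense-core granules, was at least 6.27-fold higher in adult LG (adjusted p = 6.2e-07). Cadps2 and Qpct were lower in adult LG, at -2.48 and -2.27 (adjusted p = 1.8e-07 and 6.7e-07).

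Other neuropeptide and gut peptide genes numbered 36, of which 24 passed the filter and 9 were above background on no array. Between the adult glands the largest differences among those lower in LG were in Agrp and Pomc. Agrp, an appetite-promoting peptide, was at least 15.5-fold lower in adult LG (adjusted p = 2.6e-12, limma), and Pomc, the precursor of melanocortins, at least 6.91-fold lower (adjusted p = 1.0e-10). In the embryonic tissues 3 were higher and 7 lower in LG epithelium, 3 and 4 in HG epithelium, and 4 and 7 in eyelid epithelium, with median differences of -0.18, -0.26 and -0.22. Of all genes 32.1% and 26.5% were higher and lower in LG, 29.8% and 28.1% in HG, and 25.7% and 25.5% in eyelid. Sct, the gut hormone secretin, was lower in epithelium than in mesenchyme in LG (-4.42, adjusted p = 1.1e-10) and HG (-2.45, adjusted p = 1.2e-07). Sct was higher in LG than in HG mesenchyme (2.06, adjusted p = 9.5e-06), the opposite order to Cck, Grp and Nts. Calca, the precursor of calcitonin gene-related peptide of sensory fibres, was 6.16 lower in eyelid epithelium than in eyelid mesenchyme (adjusted p = 2.3e-06, with 2 of 3 epithelial arrays above background). In eyelid mesenchyme it was 4.27 higher than in gland mesenchyme (adjusted p = 8.4e-05), the direction of Tac1 there. Gast, the stomach hormone gastrin, was higher in eyelid epithelium (4.28, adjusted p = 3.5e-06). Between LG and HG epithelium none was called higher and 1, Pnoc, lower by limma (-3.38, adjusted p = 0.00051), beside 2.96% and 3.39% of all genes. Without replicate 1 there were 2 such genes. Between the gland mesenchymes 3 were higher in LG and 2 lower (1 without replicate 1), beside 6.46% and 7.85% of all genes. In eyelid against gland mesenchyme it was 5 and 3, beside 14.5% and 15.0%.

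For 9 of the genes, all but Vip, the 3 genes of most similar pattern were found by Pearson's r of log2 level over the 23 arrays among 16324 genes. These r values mostly reflect group means and share the arrays. The closest to Cck was Gstt1 (r = 0.938), followed by Vpreb3 and Cnn1, and the closest to Grp was Htr7 (r = 0.945), followed by Gdf6 and Calcrl. Cartpt was matched most closely by Trim50, Aadacl4fm1 and Tmem116 (r = 0.986 to 0.987). For Gal the closest were Mks1 (r = 0.965), Slc30a7 and Slc25a29, for Penk Hecw2 (r = 0.955), Stab1 and Colec12, and for Npy Asb17 (r = 0.977), Hoxc4 and Tmem132d. Nts was closest to Hhip (r = 0.940), Pdgfrl and Lhx8, Tac1 to Kcnab3 (r = 0.905), Tbx15 and Itga1, and Sst to Mcpt1 (r = 0.893), Sp9 and Gsg1l. The 10 genes themselves were left out of the search.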

How the data were processed

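RNA of 23 samples was hybridised to 1-colour (Cy3) Agilent mouse arrays. Per the file headers, the deposited intensity values are processed signals, with background subtracted and spatial trends removed inside each array by Feature Extraction 11.0.1.1 for slide 1 and 11.5.1.1 for slides 2 and 3 (the submitters' processing notes list Agilent Feature Extraction 11.5.1.1), on a design of build mm9. The deposited array files also score each spot for saturation, outlier status and signal above background. The authors' deposited value table, with linear intensity of the same arrays, served as an alternative.

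Log2 of the processed signal minus each array's 75th percentile was computed here (R 4.3.3, tables read by data.table, version 1.17.8). Control and outlier spots were left out and spots of 1 probe were averaged. Of 55681 probes 27509 matched a symbol through their RefSeq accession, giving 20887 genes, and each gene was read from its brightest probe. A gene was kept if some group had each of its arrays well above background (16324 genes). Tests were limma 3.58.1 fits of all 23 arrays and 8 groups, two-sided, with Benjamini-Hochberg adjustment over the genes kept and a threshold of 0.05. They were checked on simulated data with independent arrays, a check that does not cover correlation between arrays of 1 slide. They were used for the pathway and marker lists alone. The 10 genes and all lists were chosen with earlier results of these data known. Text names up to 3 called genes per list, comparison and direction with the largest differences, and the 3 genes closest to each of the 10. A fold against a group with no array above background is a bound, from means of log2 values in which each dim array takes the higher of its own value and its lowest signal well above background. Summed marker levels are linear and skip a missing spot. The number of arrays limits the precision.

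Each slide held 1 array of every embryonic group, whose replicate number equals the slide. Adult LG replicates 1 and 2 were on slides 2 and 3. Deviations of same-numbered embryonic arrays from their group means correlated at 0.171 to 0.578, so the numbers pair these arrays. The 2 shared adult numbers (0.198 and -0.312) do not. Alternatives were normexp correction (offset 50; on median signals, as mean signals were not in the files used), median scaling, quantile normalization, other filters, the mean of a gene's probes, blocks, fewer groups and each replicate left out. Leaving out slide 1 in the adult comparison was chosen after seeing the data. Protein sequences were not used here. Figures were drawn with matplotlib 3.10.9 and pandas 2.3.3 in Python 3.11.15.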

Additional observations from a re-analysis of the deposited data

Results flagged for a closer look

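Among the 10 genes the difference between compartments went opposite ways in different tissues for Cck and Npy, with every slide on its side. Cck was 1.0 on the log2 scale (epithelium minus mesenchyme) in LG, -6.20 in HG and -2.91 in eyelid. Npy was 0.87 in eyelid. In LG its fitted value was -3.58, but no epithelial array was above background there, so the size is known only as at least 2.71-fold lower in epithelium, and with normexp correction it was -0.77. These differences between tissues were not tested, because the genes were chosen with these levels known.

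For receptors, processing genes and other peptide genes the difference of differences between tissues was tested by limma with Benjamini-Hochberg adjustment over all genes kept. Of 53 list genes 9 were called for LG against HG, 18 for LG against eyelid and 19 for HG against eyelid. The share of all genes called in these tests was not counted, so these numbers are not set against a general rate. Those given here had a called difference in both tissues that either went opposite ways or was among the largest of its list in each. Npy2r differed by -8.45 for LG against eyelid (adjusted p = 3.6e-07) and -8.39 for HG against eyelid (adjusted p = 5.0e-07), with 1 of 3 eyelid mesenchyme arrays above background, so that these sizes depend on values below background. Ntsr1 differed by -3.46 for LG against eyelid (adjusted p = 9.2e-05) and -2.82 for HG against eyelid (adjusted p = 0.00069). Vipr2 differed by 3.40 for HG against eyelid (adjusted p = 1.2e-05). Cadps2 differed by 2.02 for LG against eyelid (adjusted p = 8.2e-05) and 1.94 for HG against eyelid (adjusted p = 0.00013). Among other peptide genes Adcyap1, the precursor of a secretin-family peptide of nerves, differed by 3.91 for LG against eyelid (adjusted p = 2.3e-05), and Sct by -1.97 for LG against HG (adjusted p = 0.001).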

How the results depend on the processing

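Counts of called genes were 9569, 9447 and 8355 for epithelium against mesenchyme in LG, HG and eyelid, 1037 between LG and HG epithelium, 2336 between LG and HG mesenchyme, 4816 for eyelid against gland mesenchyme and 9081 between the adult glands. Median scaling lowered 3 of them, to 630 for the gland epithelia, 1230 for the gland mesenchymes and 2774 for eyelid mesenchyme. With only the groups of the comparison in the fit the gland mesenchymes gave 4313 and the adult glands 4369. With each replicate number left out, the counts for epithelium against mesenchyme ran from 7857 to 8500, 7951 to 8287 and 6525 to 7047. The counts ran from 463 to 964, 1118 to 1672 and 2896 to 4039 for the gland epithelia, the gland mesenchymes and eyelid mesenchyme. Between the adult glands the count was 8341 without replicate 3. Leaving out replicate 1 or 2 leaves 1 adult LG array, and no count is given for it. The counts moved by over 1.5 times without replicate 2 (463, 1118 and 2896) or replicate 3 (559, 1321 and 3007) for the gland epithelia, the gland mesenchymes and eyelid mesenchyme. The cause of these moves was not tested, beyond the fewer arrays. With the replicate block the counts were 10310, 10224, 9226, 1190, 2980, 5758 and 9661. That block does not follow the slides of adult LG, and with the slide block the adult count was 10199. None of 103 named differences of pathway genes lost its call under either block. Over 15 settings 33 of the 103 lost their call in at least 1, of them 9 between the adult glands. Scg3 (0.28, adjusted p = 0.189) and Sstr1 (0.33, adjusted p = 0.165) turned to higher in adult LG with normexp correction by limma. Of 70 differences of the 10 genes over 7 settings 19 changed sign in at least 1. The adult median over all genes was -0.13, and -0.38 with median scaling. For dim genes (Sst, and Grp, Npy, Tac1, Nts and Cartpt outside their bright groups) signal over background limits the order of groups.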
